A study of Drosophila melanogaster with 24 samples.

Results

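Heads of adult Drosophila melanogaster females of the genotype H3.3Adelta were compared at 2 ages, 21 to 25 days after eclosion (old) and 0 to 2 days (young). The members are the 6 libraries whose labels read head, female and H3.3Adelta, 3 old and 3 young, of 24 libraries in the series. The other 18 libraries are heads of H3.3Adelta males and of H3.3BK36R females and males at the same ages. H3.3Adelta, called H3.3Anull by the study, is the H3.3A2x1 null allele over the deficiency Df(2L)Bsc110, with wild-type H3.3B on the X. H3.3BK36R animals carry the same H3.3A null combination together with a lysine-to-arginine change at position 36 of H3.3B, so every group lacks H3.3A. Mutations in y and w are present on every X, and the second chromosomes are isogenic. The study states that H3.3Adelta animals live slightly less long than a wild-type strain, so the comparison describes ageing in this control genotype and not in wild-type flies. Each library is total RNA, depleted of ribosomal RNA, from heads of several pooled flies, sieved from the carcasses after freezing, so no value belongs to a single fly.

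Histone H3.3 is the form of histone H3 that is put into chromatin outside of DNA replication, at active genes and in cells that no longer divide, and in flies 2 genes, His3.3A and His3.3B, encode the same protein. A fly head is mostly brain and compound eyes, with cuticle, muscle and fat body around them. In the first days after eclosion the adult cuticle is still being laid down and hardened, and later the head tissues are held without cell division, so protein folding, synaptic, sensory, metabolic and immune genes are the usual readouts of head ageing.

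The labels were checked first. The yolk protein gene Yp1 had between 860331 and 1578460 normalized counts (reads on the gene divided by the library's size factor) in the 6 libraries, against a median of 2847 over 12 male libraries. The highest male library had 253930 and is an old H3.3Adelta library, so it is among the males compared below. The source of its Yp1 reads was not tested. The male dosage compensation RNA roX1 had 2920, 258 and 189 normalized counts in young replicates 1, 2 and 3, and 2905, 3195 and 596 in old replicates 1, 2 and 3, against at least 39681 in males. Young replicate 1 and old replicates 1 and 2 thus stood apart, and the counts that lead a group of genes are given below also without these 3 libraries, which leaves 1 old library that is assumed to vary like the other groups. His3.3A had 346 to 390 normalized counts in young and 340 to 513 in old libraries, and since every group carries the null allele its level checks no label. His3.3B had 26230, 24717 and 23085 normalized counts in young and 22303, 21747 and 21206 in old libraries, with no overlap but no call (log2 change -0.18, adjusted p = 0.19). Old replicate 2 had reads on 16374 genes, against 13364 to 14708 in the other 5. Reads on genes were between 23231263 and 42763126 in the 6 libraries. Markers of neurons, photoreceptors and glia were present in all 6, and summed testis markers stayed between 455 and 580 normalized counts. Summed ovary markers (25 genes) were 822 to 905 in young and 1677 to 2983 in old libraries, and summed gut markers (15 genes) were 5431 in old replicate 1 and 892 to 2802 in the other 5.

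Of the 17606 genes in the table, 12493 reached 10 normalized counts in 3 or more libraries of the series and were tested. Of these, 3773 (30.2%) differed between old and young heads in limma at an adjusted p below 0.05, 1927 (15.4%) higher and 1846 (14.8%) lower in old heads. Over 2-fold changes were called in 982 (7.86%), 654 (5.23%) higher and 328 (2.63%) lower, and 5147 genes (41.2%) were at an unadjusted p below 0.05. The median log2 change, old over young, was 0.08 over all genes tested and the median standard error was 0.18. The share called lower rose with the mean normalized count. It was 1.08%, 7.69%, 12.4%, 23.3% and 29.4% from the lowest to the highest of 5 groups of equal size. The shares over all genes set beside the lists below are not matched for count. Among the 6 libraries alone 10753 would have passed this filter. Of them 129 reached 10 in the 3 old libraries and in no young one, of which 100 were called, and 14 in the 3 young libraries alone, of which 10 were called, so these had to differ. Of the genes named below, CG13428, Cp38, yl, vas, vret, BigH1, ATPsynbetaL and PIG-Wa are among the 129, and their values are given as a description. The genes called in the lists below also include members of the 129. They number 2 each in the DNA replication, piRNA and cytochrome P450 lists. The heat shock, histone variant, chitin, neuropeptide, respiratory chain and yolk lists hold 1 each. Without young replicate 1 and old replicates 1 and 2, 1516 genes were called. In bulk heads, fewer cells of a type and less RNA per cell cannot be told apart, and this holds for every group of genes below.

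**Figure D1:**
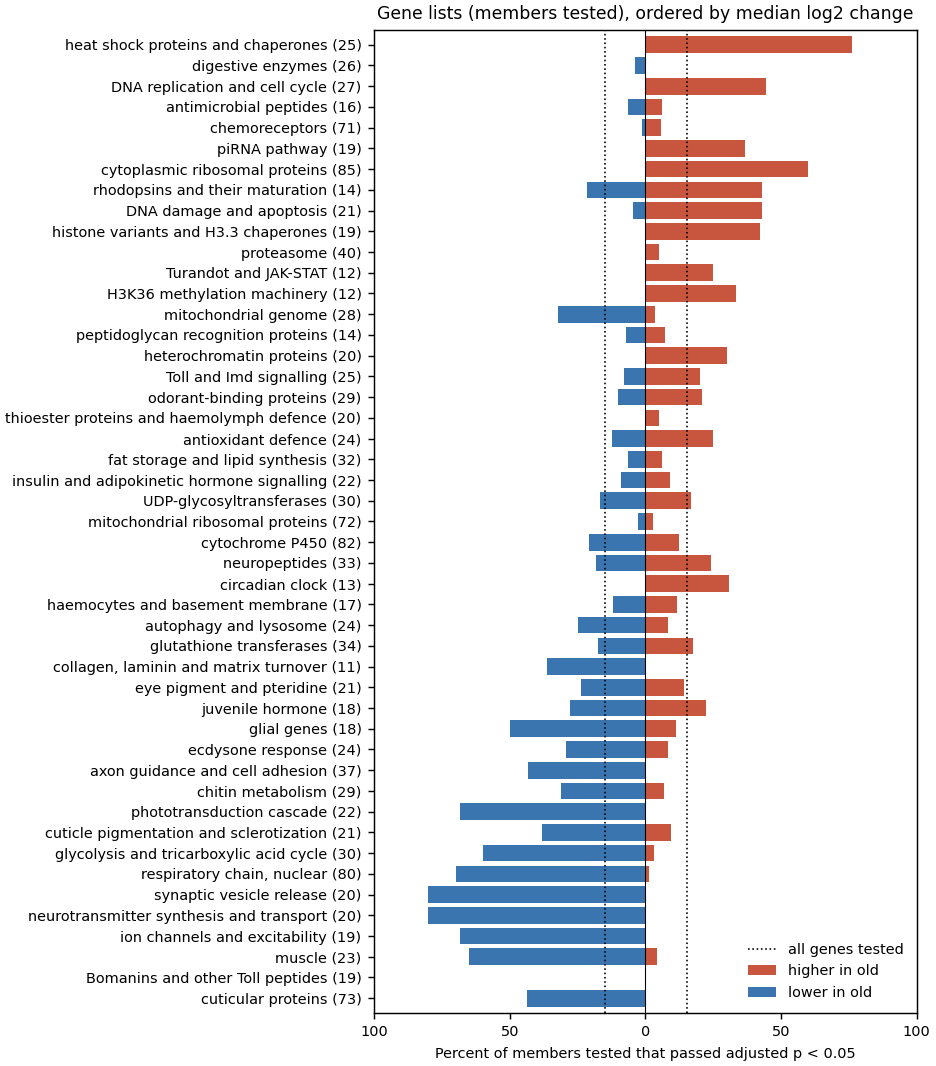
Share of the tested members of each gene list with 10 or more (number in brackets) that was higher (right) or lower (left) in old heads at an adjusted p below 0.05, ordered by the median log2 change of the list. The dotted lines give the shares over all genes tested, 15.4% higher and 14.8% lower, and heat shock genes stand at the top with 76.0% higher and cuticular proteins at the bottom with 43.8% lower.

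Heat shock genes had the highest median of all lists. They encode chaperones that hold and refold damaged proteins, and most are silent until heat or another stress frees the factor Hsf. Of 25 tested, 19 were higher and 0 lower in old heads, with a median log2 change of 2.28. Hsp70Ba had 30.3, 36.1 and 59.9 normalized counts in young and 1500, 3548 and 3208 in old libraries. Every old library was above every young one, by a log2 change of 5.96 (SE 0.41, adjusted p = 9e-09). Hsp70Ba lies on chromosome 3R at 12465453 to 12467776 (dm6). Hsp70Bb, Hsp70Bc, Hsp70Ab and Hsp70Aa, near-identical copies between which reads can be split, had log2 changes of 5.83, 5.63, 5.54 and 5.51. Of the RNAs that lie beside them, lncRNA:alphagamma-element:CR32865 had 22.7, 17.2 and 32.8 normalized counts in young and 690, 2950 and 1693 in old libraries (log2 change 5.95). In each of these genes old replicate 1 was the lowest old library and still above all young ones.

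The rise was shared by other classes of chaperones. Hsp68, a further inducible Hsp70, went from 498, 404 and 544 to 11548, 30909 and 24837 normalized counts (log2 change 5.43, SE 0.37). The small heat shock proteins Hsp26 and Hsp27, which bind unfolded proteins without ATP, had log2 changes of 5.19 and 4.88. Hsp26 had 166, 154 and 248 normalized counts in young and 4292, 9447 and 7622 in old libraries. Hsp83, the fly Hsp90, had 4769, 8852 and 6858 in young and 35712, 34049 and 43838 in old libraries (log2 change 2.51, adjusted p = 9e-09). The co-chaperones DnaJ-1 and stv, which work with Hsp70, had log2 changes of 2.28 and 2.22. The endoplasmic reticulum chaperones Hsc70-3 and Gp93 had log2 changes of 1.77 and 1.41. Their constitutive relatives moved less, with a log2 change of 0.73 for cytosolic Hsc70-4 and 0.50 for mitochondrial Hsc70-5, and Hsf itself had 0.27 (adjusted p = 0.0099). l(2)efl (log2 change -0.08, adjusted p = 0.76) and Hsc70-1 (-0.40, adjusted p = 0.065) did not pass. Without the 3 libraries of higher roX1, 17 of 25 were higher, with a median of 2.26, and with single libraries left out 17 to 19 were higher and 0 or 1 lower.

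**Figure D2:**
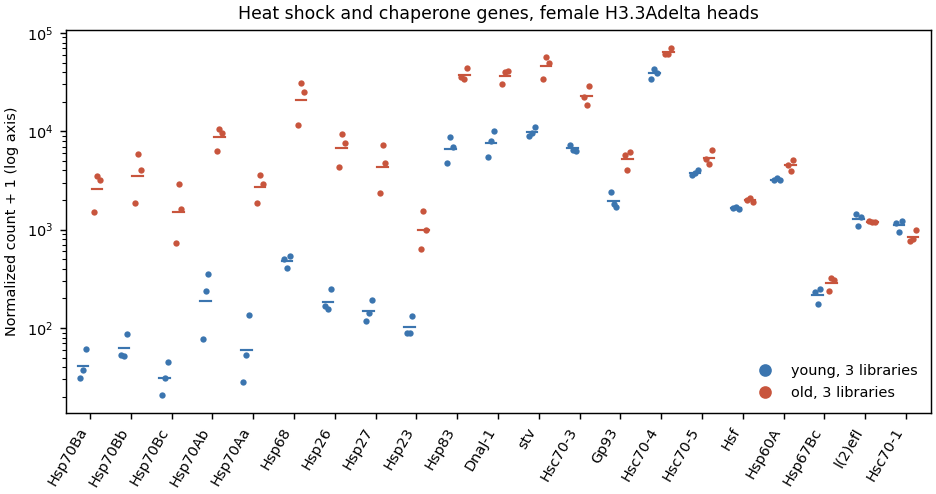
Normalized count plus 1 on a log axis for 21 chaperone genes in the 3 young (blue) and 3 old (red) libraries, with geometric means as bars. The inducible genes from Hsp70Ba to stv do not overlap between ages, Hsp70Ba going from at most 59.9 to at least 1500, while Hsp67Bc, l(2)efl and Hsc70-1 overlap.

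Among genes named by the size of their increase CG13428 had the largest. It had 0.0, 0.859 and 1.13 normalized counts in young and 111, 235 and 636 in old libraries (log2 change 7.34, SE 1.22), near the detection limit in young heads. The other genes among the 10 largest increases outside the heat shock group were Cp38 and CG11741. Cp38, a chorion (eggshell) protein of the ovary, had 0.758, 2.58 and 0.0 in young and 305, 36.0 and 72.5 in old libraries. It moved with other ovary markers, of which 13 of 25 tested were higher and 0 lower in old heads. Of these markers 9 passed the filter through the old libraries alone. The higher markers were 8 without old replicate 1 or young replicate 3, 7 without young replicate 2 and 1 without the 3 libraries of higher roX1. The yolk protein receptor yl, an oocyte gene, had 0.758, 1.72 and 1.13 in young and 128, 90.4 and 60.2 in old libraries. Old replicate 1 was highest in both genes. CG11741 had 73.5, 6.87 and 0.0 in young and 383, 316 and 279 in old libraries.

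pirk, a negative regulator of the Imd immune pathway, was higher in all old libraries. pirk had 116, 90.2 and 72.3 normalized counts in young and 1737, 1192 and 1356 in old libraries, a log2 change of 3.94 (SE 0.22, adjusted p = 1.9e-09). The gene pirk spans 21660967 to 21662995 on chromosome 2R (dm6). Among 25 genes of Toll and Imd signalling, 5 (20.0%) were higher and 2 (8.0%) lower, with a median of 0.16. These shares are near those over all genes tested, 15.4% and 14.8%. Dredd, the caspase of the Imd pathway, and IKKbeta, its kinase, were higher by log2 changes of 0.61 and 0.38, and the receptor Tl (-0.31) and the protease grass (-0.52) were lower. The 5 higher genes were 3 without young replicate 1, old replicate 1 or old replicate 3, and 2 without young replicate 3 or without the 3 libraries of higher roX1. The cytokines upd3 and upd2, ligands of the JAK-STAT receptor, were higher at low counts. upd3 had 28.0, 3.44 and 10.2 in young and 70.9, 99.6 and 83.5 in old libraries (log2 change 2.91, adjusted p = 0.0027). The values did not overlap.

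Few effectors of immunity were called with age, and their values varied widely between old libraries. Of 16 antimicrobial peptide genes tested, 1 was higher (AttD) and 1 lower (Drsl4), with at most 1 in either direction when a library was left out, and of 19 Bomanins and other Toll-induced peptides 0 were called in limma, 0 were at an unadjusted p below 0.05, 1 was called in edgeR and 0 in DESeq2. Old replicate 1 was the highest old library for 16 of 16 antimicrobial peptides and for 18 of 19 of the Toll-induced peptides. DptA, an Imd target, had 636, 633 and 980 normalized counts in young and 12421, 63.7 and 603 in old libraries. Drs, a Toll target, had 3021, 186 and 968 in young and 6704, 160 and 118 in old libraries. The 3 old libraries thus spanned more than the 3 young ones, and the ages overlapped in both genes. The standard errors of their log2 changes were 1.45 and 1.25, so a missing call does not show a lack of change. Summed over the 16 antimicrobial peptides, old replicate 1 had 193333, old replicate 2 had 9306 and old replicate 3 had 43874 normalized counts, against 31326 to 39096 in young libraries. Without old replicate 1 the median log2 change of the antimicrobial list went from 0.83 to -0.51, without old replicate 2 to 2.16 and without young replicate 2 to 0.14. With old replicate 1 left out, 10 of the Toll-induced peptides were lower. Old replicate 1 was also the library with the highest gut and ovary markers, and their part in these values was not tested.

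Genes of protein synthesis were higher in smaller steps. Of 85 cytoplasmic ribosomal protein genes, 51 were higher and 0 lower, with a median of 0.38. RpL37-1 had 11846, 14856 and 12883 normalized counts in young and 21490, 19678 and 20446 in old libraries (log2 change 0.64, adjusted p = 0.00035). RpS30 (0.51), sta (0.57), RpL26 (0.66) and RpLP0-like (0.85) also did not overlap between ages. The count rested on single libraries, with 19 higher without young replicate 1, 20 without old replicate 1, 24 without young replicate 3 and 1 without the 3 libraries of higher roX1, at medians of 0.28 to 0.38. Of 125 small nucleolar RNAs, which guide the modification of ribosomal RNA, 34 were higher and 5 lower, with a median of 0.59, and 17 were higher without the 3 libraries of higher roX1. The RNA snoRNA:Psi18S-1377a, chosen after its values were seen, had 82.6, 116 and 84.8 in young and 488, 506 and 555 in old libraries (log2 change 2.45).

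Among the genes of histone variants and their loading, 8 of 19 (42.1%) were higher and 0 lower, with a median of 0.34. Over all genes tested 15.4% were higher and 14.8% lower. Ssrp and dre4, the subunits of the FACT histone chaperone, had log2 changes of 1.18 and 0.48. Ssrp had 296, 310 and 210 normalized counts in young and 650, 559 and 623 in old libraries. Caf1-55, shared by several chromatin complexes, had a log2 change of 0.51, and Hira, which loads H3.3, had 0.52 (adjusted p = 0.0096). Chd1 (0.09), XNP (0.04) and asf1 (-0.07) did not pass. BigH1, the germline linker histone, had 0.0, 0.859 and 0.0 in young and 19.9, 16.6 and 13.5 in old libraries. Without old replicate 1, 4 of the 19 were higher, and without young replicate 3 or without the 3 libraries of higher roX1, 3. Of 12 genes of H3K36 methylation, 4 (33.3%) were higher and 0 lower, beside the same shares over all genes. Of the 4, NSD, a methyltransferase of this residue, had 562, 582 and 512 in young and 750, 740 and 760 in old libraries (log2 change 0.44). The count was 1 of 12 without the 3 libraries of higher roX1.

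Heterochromatin proteins had 6 higher (30.0%) and 0 lower of 20, with a median of 0.16. Over all genes tested 15.4% were higher and 14.8% lower. Lam, a lamin of the nuclear envelope, had 1127, 1138 and 1086 normalized counts in young and 1809, 1810 and 1978 in old libraries (log2 change 0.74, adjusted p = 1.4e-06). The H3K9 methyltransferase Su(var)3-9 had a log2 change of 0.99, and the ages did not overlap. Without young replicate 3 or without the 3 libraries of higher roX1, 2 of the 20 were higher. Of 19 piRNA pathway genes, which silence transposons in the germline, 7 (36.8%) were higher and 0 lower. Of the 7, 2 reached 10 normalized counts in old libraries alone. nxf2, vret and vas had log2 changes of 2.28, 2.41 and 2.53 from at most 10.3 normalized counts in young libraries, and vas is also one of the ovary markers. Without old replicate 2 or young replicate 3, 4 of the 19 were higher, and without the 3 libraries of higher roX1, 2. DNA replication and cell cycle genes had 12 higher (44.4%) and 0 lower of 27, with a median of 1.09. Of the 12, 2 reached 10 normalized counts in old libraries alone. Mcm3, a part of the replicative helicase, had 21.2, 9.45 and 15.8 in young and 47.5, 40.6 and 72.5 in old libraries. The count was 6 without old replicate 1 or young replicate 2, 7 without young replicate 3 and 2 without the 3 libraries of higher roX1. Summed ovary markers were higher in old heads beside these lists, and their part in them was not tested. DNA damage and apoptosis genes had 9 higher (42.9%) and 1 lower (4.76%) of 21. p53 had 76.6, 76.4 and 59.9 in young and 109, 122 and 112 in old libraries, tefu (ATM) had a log2 change of 0.80, mei-41 (ATR) 1.06 and Irbp (Ku70) 0.92, while the pro-apoptotic skl was lower (-0.94). The higher genes were 4 of 21 without the 3 libraries of higher roX1.

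Cuticular proteins had one of the lowest medians of the lists. They bind chitin in the exoskeleton. Of 73 tested, 32 were lower and 0 higher in old heads, with a median of -1.12. The ages did not overlap for 37 of the 73, a share near the 47.5% over all genes tested. The largest decrease was in CG11458, a gene that is in no list, which had 35750, 9120 and 24368 normalized counts in young and 23.4, 38.7 and 25.8 in old libraries. That is a log2 change of -9.40 (SE 0.59, adjusted p = 5.8e-09), for this gene at 20905795 to 20906331 on chromosome 3L. CG7214, also in no list, had 11337, 2047 and 17114 in young and 23.4, 44.3 and 28.2 in old libraries (log2 change -7.85), and Acp1, an adult cuticular protein, had 4031, 600 and 8802 in young and 17.7, 35.1 and 51.6 in old libraries (-6.40). In these 3 genes the old libraries lay far below the lowest young one. The rest of the 10 largest decreases were the cuticular proteins Ccp84Ab and Ccp84Aa and the unlisted genes CG13044, CG8736, CG7203, CG40198 and CG13026, with log2 changes from -5.27 to -4.22.

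Other cuticular genes differed less between libraries of the same age. Cpr49Ag had 2194, 1470 and 2425 normalized counts in young and 436, 344 and 405 in old libraries (log2 change -2.33), and Cpr49Ae had a log2 change of -2.42. Young replicate 2 was the lowest young library for 49 of the 73 genes. With young replicate 1 left out 20 were lower, with young replicate 3 left out 17, and without the 3 libraries of higher roX1 12, at medians of -1.25 to -0.84. Enzymes that build and tan the cuticle followed. Of 29 chitin metabolism genes 9 were lower and 2 higher, with Cda5, a chitin deacetylase, at 10182, 7761 and 14288 in young and 3284, 3222 and 3787 in old libraries (log2 change -1.61), and of 21 pigmentation and sclerotization genes 8 were lower and 2 higher, the latter 0 or 1 with any single library left out. Ddc, which makes the catecholamine precursors of tanning, had a log2 change of -0.66, and Pu, the first enzyme of pteridine synthesis, -1.06. Without young replicate 3, 4 chitin genes were lower, and without the 3 libraries of higher roX1, 2 of each of these lists.

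**Figure D3:**
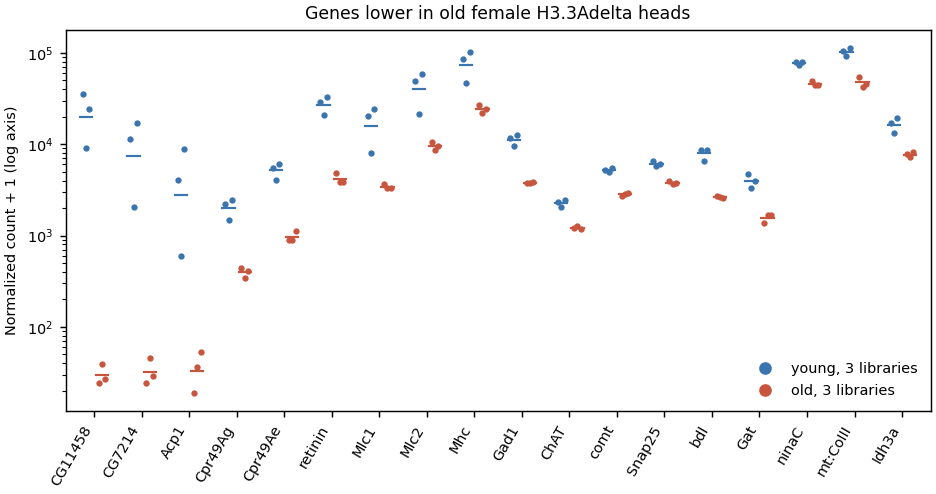
Normalized count plus 1 on a log axis for 18 genes lower in old heads, in the 3 young (blue) and 3 old (red) libraries, with geometric means as bars. The ages do not overlap for any of them, and young replicate 2 is the lowest young library for many of them, as for CG11458 (9120) and Mlc1 (7934).

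Muscle genes had 15 lower and 1 higher of 23, with a median of -0.84. Mlc1, a myosin light chain, had 20102, 7934 and 24394 normalized counts in young and 3664, 3342 and 3285 in old libraries (log2 change -2.20, SE 0.36). Mlc2 (-2.05), the troponin gene up (-1.56) and TpnC41C (-1.86) also did not overlap, and Tm1, a tropomyosin, had -0.84. The giant proteins sls (0.03) and Msp300 (0.14) did not pass. Young replicate 2 was the lowest young library for 20 of the 23. Of the 6 flight muscle markers 3 were lower and 1 higher. Summed over them, young libraries had 106931 to 219819 and old libraries 55608 to 64113 normalized counts, and the defining flight muscle gene fln was at 24.8 or less in all 6. The lower genes were 7 of 23 without the 3 libraries of higher roX1.

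Genes of energy metabolism were lower as well. Of 80 nuclear genes of the respiratory chain, 56 were lower and 1 higher, with a median of -0.55. ND-42, of complex I, had 3046, 2584 and 3429 normalized counts in young and 1912, 1578 and 1860 in old libraries (log2 change -0.75). COX5B, of complex IV, had -0.76 and SdhD, of complex II, -0.64. The one higher gene, ATPsynbetaL, was at 0.0 in all young libraries and at 10.6, 36.9 and 17.2 in old ones. The count of lower genes was 27 without old replicate 2, 31 without young replicate 3 and 0 without the 3 libraries of higher roX1, where the median was -0.37. Genes of glycolysis and the tricarboxylic acid cycle had 18 lower and 1 higher of 30. Idh3a, of isocitrate dehydrogenase, had 16949, 13094 and 19528 in young and 7726, 7152 and 8218 in old libraries (log2 change -1.08), kdn, citrate synthase, had -1.13 and Pfk, the control step of glycolysis, -0.78. Without old replicate 2, 11 were lower, and without the 3 libraries of higher roX1, 6. RNAs of the mitochondrial genome had 9 lower and 1 higher of 28 tested. mt:CoIII had 104064, 91732 and 114269 in young and 55041, 42516 and 45504 in old libraries (log2 change -1.12), and mt:srRNA, a mitochondrial ribosomal RNA, had -1.15. The median of this list was 0.23, above 0 although most of its calls were lower, and 4 were lower without the 3 libraries of higher roX1.

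Genes of the synapse were lower as a group. Of 20 genes of synaptic vesicle release, 16 were lower and 0 higher, with a median of -0.56. comt, the NSF ATPase that takes SNARE complexes apart, had 5239, 4949 and 5449 normalized counts in young and 2736, 2865 and 2897 in old libraries (log2 change -0.88, SE 0.07, adjusted p = 5.1e-08). Rop, Snap25, shi and Rab3 had log2 changes of -0.77, -0.70, -0.71 and -0.74. The old libraries of comt differed by less than the step between ages. Of 20 genes of neurotransmitter synthesis and transport, 16 were lower and 0 higher, with a median of -0.57. Gad1, which makes GABA, had 11704, 9575 and 12674 in young and 3732, 3748 and 3860 in old libraries (log2 change -1.57, adjusted p = 3.2e-08). The vesicular GABA transporter VGAT had -0.88, ChAT, which makes acetylcholine, -0.89, Hdc, which makes the photoreceptor transmitter histamine, -0.82, and the dopamine transporter DAT -0.78.

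Ion channel and pump genes had 13 lower and 0 higher of 19, with a median of -0.63. Atpalpha and nrv3, the subunits of the neuronal sodium pump, had log2 changes of -1.02 and -1.14. Atpalpha had 230430, 192446 and 241639 normalized counts in young and 107756, 109725 and 108904 in old libraries. The potassium channel Shal had -0.72. Axon guidance and adhesion genes had 16 lower and 0 higher of 37, Fas1 at -1.11 and beat-IIa at -0.65. The neuronal RNA-binding protein elav, a marker, had between 9311 and 10154 in young and between 8256 and 8682 in old libraries. It had no overlap but no call (log2 change -0.20, adjusted p = 0.25). Summed over 7 neuronal markers the young libraries had 255760 to 278605 and the old ones 178835 to 190327. Of these 7 markers 3 were lower, 0 higher and 4 not called. Without the 3 libraries of higher roX1 the lower genes were 7 of 20 for vesicle release, 8 of 20 for transmitters, 3 of 19 for channels and 2 of 37 for axon guidance, with medians of -0.56, -0.51 and -0.63 in the first 3 of these lists.

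Glial genes had 9 lower and 2 higher of 18, with a median of -0.24. bdl, an adhesion protein with a role in glial wrapping of photoreceptor axons, had 8707, 6622 and 8649 normalized counts in young and 2694, 2615 and 2572 in old libraries (log2 change -1.59, adjusted p = 5.5e-08). nrv2, alrm, an astrocyte gene, and Gat, the glial GABA transporter, had log2 changes of -1.16, -1.06 and -1.33. wrapper, of midline and cortex glia, was higher, with 365, 431 and 388 in young and 670, 570 and 629 in old libraries (log2 change 0.66). The glial factor repo had 1661 to 2006 in young and 1482 to 1754 in old libraries, which overlapped. Summed over the 7 glial markers young libraries had 68760 to 80819 and old libraries 52532 to 54817. Of these 7 markers 4 were lower, 0 higher and 3 not called. The lower genes were 4 of 18 without the 3 libraries of higher roX1.

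The genes of the eye split by role. Of 22 genes of the phototransduction cascade, which turns light into a current in the rhabdomere, 15 were lower and 0 higher, with a median of -0.44. retinin, a protein of the corneal lens that the list holds beside the cascade, had 29220, 20860 and 32842 normalized counts in young and 4786, 3894 and 3849 in old libraries (log2 change -2.71, adjusted p = 1.4e-07). ninaC, the photoreceptor myosin, had 79337, 73537 and 78808 in young and 49445, 44419 and 44073 in old libraries (-0.75). chp, Gbeta76C and inaE had log2 changes of -0.72, -0.91 and -0.58. The light-activated channel trp had -0.41, while trpl (0.01) and the arrestins Arr1 (0.13) and Arr2 (0.26) did not pass. The lower genes were 7 of 22 without the 3 libraries of higher roX1. The rhodopsins and their maturation factors went the other way in part, with 6 higher and 3 lower of 14. Rh4, the rhodopsin of ultraviolet-sensing inner photoreceptors, had 12362, 14339 and 14209 in young and 23012, 22560 and 25286 in old libraries (log2 change 0.79), and pinta, which binds the chromophore in pigment cells, had 0.78. Rh7 (-0.75) and Pdh (-0.86) were lower. ninaE, the main rhodopsin, had 588924, 694766 and 563691 in young and 843126, 916752 and 881540 in old libraries, with no overlap and no call (log2 change 0.52, SE 0.24, adjusted p = 0.12). Without young replicate 1, 2 of the 14 were higher, without old replicate 3, 3, and without the 3 libraries of higher roX1, 2. Summed photoreceptor markers, of which ninaE is the largest part, were 763006 to 884260 in young and 1008149 to 1084648 in old libraries. Of these 7 markers 3 were higher, 2 lower and 2 not called.

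Among 13 clock genes, 4 (30.8%) were higher and 0 lower, against 15.4% and 14.8% over all genes tested. The repressors tim, vri and cwo had log2 changes of 1.12, 1.5 and 1.09. tim had 2282, 2597 and 2331 normalized counts in young and 4772, 4762 and 6265 in old libraries, so that the ages did not overlap. Pdf, the peptide of clock neurons, had a log2 change of 0.59. per (0.32, adjusted p = 0.48), Clk (0.21), cyc (0.01) and cry (-0.17) did not pass. The higher genes were 2 of 13 without the 3 libraries of higher roX1. The levels of tim and vri cycle over the day, and the time of collection is not given in the sources used here.

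Of the 7 genes listed with the yolk proteins, 3 were higher and 0 lower, among them yl and dsx, and 1 was higher without the 3 libraries of higher roX1. Yp1, Yp2 and Yp3 overlapped, with log2 changes of 0.35, 0.20 and 0.23 and adjusted p from 0.86 to 0.92. Their standard errors, 1.24 to 1.33, come from the spread in all 8 groups, males included. Yp1 had 860331, 1002587 and 982140 normalized counts in young and 1578460, 908221 and 1227519 in old libraries. The sex determination gene dsx had 2029, 1190 and 1036 in young and 3375, 3328 and 3018 in old libraries (log2 change 1.25, adjusted p = 0.004). Lsp2, a larval serum protein still made in young fat body, was called lower (log2 change -3.61, adjusted p = 0.012) although old replicate 1 at 6714 overlapped with the young values of 7499, 3906 and 22016, while old replicates 2 and 3 had 458 and 113. Apoltp, a lipid transfer protein of the haemolymph, had 18717, 28770 and 18436 in young and 44833, 41726 and 47250 in old libraries (log2 change 1.05). The insulin-like peptide Ilp3 had 407, 291 and 405 in young and 174, 162 and 147 in old libraries (-1.17).

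The genes called were spread unevenly over chromosomes and over gene spans. On chromosome 4, 38 of 104 genes tested were lower and 3 higher (36.5% and 2.88%), with a median of -0.25, whereas the large arms had 12.9% to 15.7% lower and 14.3% to 17.1% higher. mav, a ligand of the TGF-beta family encoded there and chosen after its values were seen, had 2251, 1984 and 2516 normalized counts in young and 1095, 1035 and 927 in old libraries (log2 change -1.14). Gat and Pur-alpha (-0.88) also lie on this chromosome. Protein-coding genes were split by span into 5 groups of equal size. The group of the longest genes (8114 to 1965857 bases) had 656 of 2236 lower and 139 higher, and the middle group (2119 to 3515 bases) had 266 lower and 521 higher. Chromosome 4 held 49 protein-coding genes of the longest group, of which 20 were lower, and 31 shorter ones, of which 13 were lower. On the other chromosomes 29.1% of genes in the longest group and 12.2% of shorter ones were lower. The fifth of genes with the highest mean normalized count had 29.4% lower and 9.96% higher, and the part of count in these shares was not tested. Genes within 2 Mb of the centromere-proximal end of the large arms had 19 higher (10.9%) and 31 lower (17.7%) of 175, with a median of 0.14. These shares are near those over all genes tested, 15.4% and 14.8%. Without the 3 libraries of higher roX1, 9 genes of chromosome 4 and 221 of the longest group were lower, at medians of -0.23 and -0.19.

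**Figure D4:**
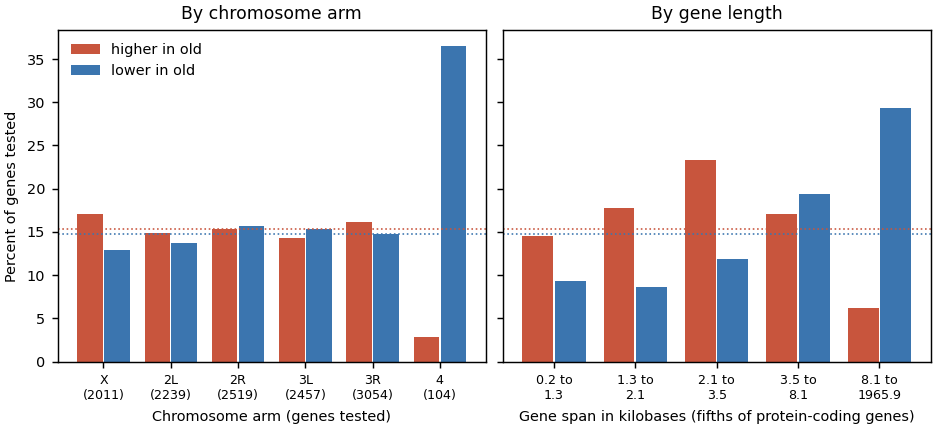
Percent of genes higher (red) and lower (blue) in old heads at an adjusted p below 0.05, by chromosome arm with the number of genes tested (left) and by 5 groups of protein-coding gene span in kilobases (right). Dotted lines give the shares over all genes tested, and chromosome 4 (36.5% lower) and the longest group (29.3% lower) stand above them.

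H3.3Adelta males were compared to ask whether the age change depended on sex. In males 3309 genes (26.5%) were called. Of the 3773 genes called in females 2379 (63.1%) were also called in males, which is 71.9% of the male list, and 2378 of these had the same direction. The difference between the age changes, females minus males, passed the threshold in 0 of 12493 genes (0%) in limma, 0 in edgeR and 16 in DESeq2, with a smallest adjusted p of 0.19 and 720 genes (5.76%) at an unadjusted p below 0.05. The median standard error of this difference was 0.25. On simulated data 51% of 100 differences of 1 on the log2 scale and 6% of 100 of 0.5 were recovered. These were placed only in genes with a mean of at least 50 normalized counts. For Hsp70Ba the age change was 5.96 in females and 6.43 in males, a difference of -0.47 (95% interval -1.69 to 0.75). For the endoplasmic reticulum chaperone Hsc70-3 it was 1.77 in females and 0.77 in males, a difference of 1.0 (0.5 to 1.5) that did not pass over all genes (adjusted p = 0.32). For CG11458 the difference was -0.55 (-2.29 to 1.18) and for Gad1 -0.27 (-0.62 to 0.09).

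H3.3BK36R females were compared to ask where ageing differed with the residue K36 of the only H3.3 gene left. The study reports a shorter adult lifespan for this genotype than for H3.3Adelta, so the same days fall later in its life. An effect of the residue and one of the stage of life cannot be told apart here. In H3.3BK36R females 4624 genes (37%) were called. Of the 3773 genes 2714 (71.9%) were also called in H3.3BK36R females, which is 58.7% of that list, and 2696 had the same direction. The difference of age changes passed in 124 genes (0.993%), 41 (0.328%) with a higher and 83 (0.664%) with a lower value in H3.3Adelta, and 1555 (12.4%) were at an unadjusted p below 0.05. Of the 83, 77 rose with age in H3.3BK36R females, and of the 41, 34 fell there. In 75 of the 124 the age change was called in H3.3BK36R females alone, in 13 in H3.3Adelta females alone and in 36 in both, with opposite directions in 14. The count was 36 to 208 with single female H3.3Adelta libraries left out, being 208 without old replicate 1, 41 without young replicate 2, 63 without old replicate 2, 60 without young replicate 3 and 36 without old replicate 3. It was 65 without the 3 libraries of higher roX1 and 39 in a fit of the 4 groups alone.

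Peptides induced by Toll and glutathione transferases were called on the lower side. BomS5, a Bomanin peptide induced by Toll, had 1798, 620 and 1265 normalized counts in young and 1925, 776 and 522 in old H3.3Adelta heads, which overlapped (log2 change -0.28, adjusted p = 0.7). The log2 age change in H3.3BK36R females was 3.69, and the difference was -3.98 (SE 0.72, adjusted p = 0.011). Of 19 Toll-induced peptides, 3 (BomS5, BomBc3 and Bbd) had a lower age change in H3.3Adelta. The age change was also lower there for 7 of 34 glutathione transferases, which detoxify by conjugation, and higher for 0. Of 82 cytochrome P450 genes, also enzymes of detoxification, 3 (Cyp313a1, Cyp313a4 and Cyp4d21) had a higher age change in H3.3Adelta and 1 (Cyp9b1) a lower one. GstE8, chosen after its values were seen, had an age change of -0.71 in H3.3Adelta and 1.47 in H3.3BK36R females. Antimicrobial peptides had a median difference of -3.36, with 0 of 16 called in limma, edgeR or DESeq2 and 5 at an unadjusted p below 0.05. Ugt37A3, a UDP-glycosyltransferase, had 124, 140 and 48.6 in young and 99.3, 57.2 and 33.2 in old heads, and the difference was -3.65. CG16772 was lower with age in H3.3Adelta (-1.97) and higher in H3.3BK36R females (1.65), a difference of -3.62. Of the heat shock list 1 of 25 differed, the small heat shock protein Hsp67Bc, at 233, 174 and 249 in young and 240, 325 and 308 in old H3.3Adelta heads (log2 change 0.41, adjusted p = 0.12) against a log2 age change of 2.30 in H3.3BK36R females. Hsp70Ba had 5.96 and 6.68, a difference of -0.72 (95% interval -1.94 to 0.49).

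On the higher side, CG30411 differed by 3.5, CG34305 by 2.94 and PIG-Wa by 2.92. PIG-Wa rose in H3.3Adelta heads from 3.79, 4.29 and 0.0 to 17.7, 27.7 and 20.9 normalized counts, and the log2 age change in H3.3BK36R females was 0.03. Orco, the odorant receptor co-receptor, had 37.9, 24 and 28.3 in young and 82.2, 118 and 67.5 in old H3.3Adelta heads (log2 change 1.53). In H3.3BK36R females it had 183.7, 96.8 and 119.0 in young and 29.3, 101.7 and 64.6 in old libraries (-1.14), a difference of 2.66 (SE 0.53). The genotypes thus differed in young heads and overlapped in old ones. Acox3, an acyl-CoA oxidase chosen after its values were seen, had log2 age changes of 0.17 and -1.05 in the same order, a difference of 1.22 (adjusted p = 0.00028). The lists of synaptic, transmitter, channel, phototransduction, muscle, ribosomal protein, respiratory chain and tricarboxylic acid cycle genes had 0 of 299 genes called for this difference in limma, 0 in edgeR and 4 in DESeq2, with 20 at an unadjusted p below 0.05 and list medians of the difference from -0.18 to 0.2. A missing call does not show that the age changes were the same.

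**Figure D5:**
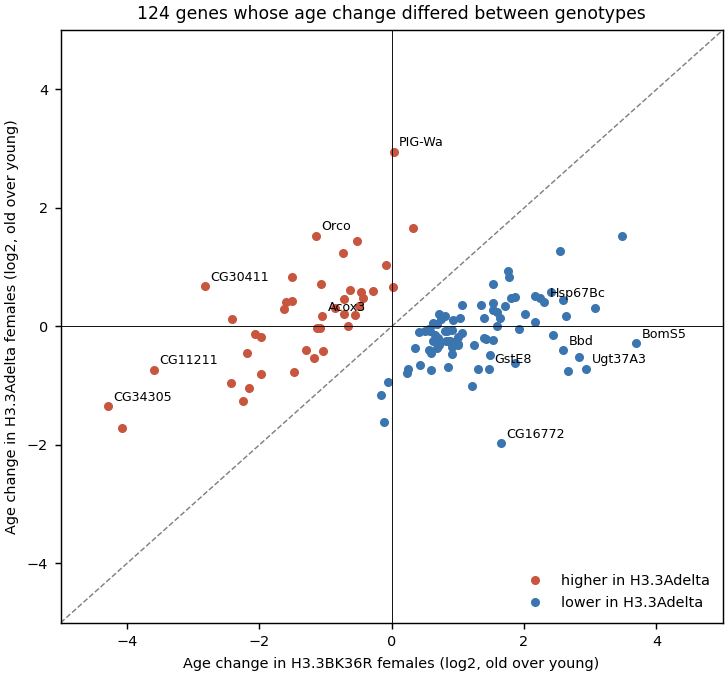
Log2 age change (old over young) in H3.3BK36R females (x axis) and H3.3Adelta females (y axis) for the 124 genes whose age change differed between the genotypes, with equality as the dashed line. Genes with a lower age change in H3.3Adelta (blue) lie right of the line, as BomS5 with 3.69 and -0.28. Those with a higher age change in H3.3Adelta (red) lie left of it.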

How the data were processed

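The authors aligned reads to dm6 with STAR 2.7.7a, counted them on genes with featureCounts (Subread 2.0.3) and normalized with DESeq2 1.34.0, per their methods and processing notes. The annotation release is not given in the sources used here. The name of the deposited table carries a strand tag that the methods do not explain, so overlapping and antisense genes are treated as uncertain. The deposited signal is a normalized count, the gene count divided by the library's size factor. Whole reads were recovered for 100% of values (tolerance 0.001). Library totals were 21263006 to 42763126 reads, and these set counting error only.

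limma 3.58.1 (R 4.3.3, trend, two-sided, Benjamini-Hochberg) was fitted to log2(normalized count + 1) of 12493 of 17606 genes, as means of 8 groups over 23 libraries. The study removed 1 library, taken to be young male H3.3BK36R replicate 2 from an earlier match of its mean counts. Changes of low genes are understated on this scale. Groups came from the labels, and day ranges from the methods. Replicates are separate pools of flies. The p-values measure the spread between replicates pooled over the 8 groups of both sexes and genotypes, not that of the 6 libraries alone. A gene that varies in males can thus have a wide standard error here, as Yp1 with 1.33. Alternatives were edgeR 4.0.16 and DESeq2 1.42.0 on recovered reads, other pseudocounts, filters, scaling, weights, a replicate block and left-out libraries. On simulated data limma recovered 30% of 100 age changes of 0.5 and 78% of 100 of 1 on the log2 scale. The changed genes were drawn from those with a mean of at least 50 normalized counts, so recovery at lower counts was not measured. Fewer genes changed in the simulation than were called in the heads. Members, lists and tests were chosen with earlier results of these data known. Named genes were the 10 largest increases and decreases among called genes with a mean of at least 50 and no overlap between ages, up to 5 called members of each list by p, the 3 largest of each sign in the differences, and the H3.3, roX and Yp genes. Genes named beyond this rule were chosen after their values were seen, namely Hsf, DnaJ-1, stv, Hsc70-1, Hsc70-3, Hsc70-4, Hsc70-5, Gp93, l(2)efl, Hsp67Bc, DptA, Drs, BomBc3, Bbd, GstE8, Cyp313a4, Cyp4d21, Cyp9b1, Acox3, Chd1, XNP, asf1, sls, Msp300, fln, elav, repo, trp, trpl, Arr1, Arr2, ninaE, per, Clk, cyc, cry, mav, Pur-alpha and a snoRNA. Symbols and positions came from Ensembl release 115 (dm6 coordinates). Python 3.11.15 with pandas 2.3.3 and matplotlib 3.10.9 made tables and figures.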

Additional observations from a re-analysis of the deposited data

Results flagged for a closer look

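The age change differed between H3.3Adelta and H3.3BK36R females in 124 genes by the test of the difference itself in limma. Of the genes named by the rule, the values of H3.3Adelta minus H3.3BK36R on the log2 scale were -3.98 for BomS5, -3.65 for Ugt37A3, -3.62 for CG16772, -1.0 for the cuticle gene Cpr65Au and -0.72 for the UDP-glycosyltransferase Ugt302C1. On the other side they were 3.5 for CG30411, 2.94 for CG34305, 2.92 for PIG-Wa, 2.66 for Orco, 1.12 for the cytochrome P450 Cyp313a1, 1.06 for the odorant-binding protein Obp19b, 1.0 for the cuticle gene Vajk1 and 0.63 for the glial gene wrapper. The adjusted p of these genes ran from 0.0067 for Obp19b to 0.05 for PIG-Wa. The PIG-Wa value is given as a description. Its young H3.3Adelta normalized counts were at most 4.29, below all young H3.3BK36R ones.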

How the results depend on the processing

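The number of genes called with age, 3773, was 3394 to 4901 under the alternatives that kept all 6 libraries and 2676 to 3395 with single libraries left out. It was 1516 without the 3 libraries of higher roX1, an alternative chosen after seeing the data, with 635 over 2-fold against 982. Over 2-fold counts were 736 to 991 with single libraries left out. The difference between females and males had 0 genes called, 1 at a pseudocount of 5, 16 in DESeq2, 4 with weights for single libraries, 1 without the 3 libraries of higher roX1 and 0 to 1 with single libraries left out. The difference from H3.3BK36R females had 124, against 276 in DESeq2, 39 in the groups of the contrast alone, 65 without the 3 libraries of higher roX1, 28 in the groups alone with a replicate block, also chosen after seeing the data, and 36 to 208 with single libraries left out. Settings that leave out libraries or groups hold fewer samples, and the cause of the other shifts was not tested. Of 244 values of named genes, 0 were reversed under these alternatives. Most were named because they were called, which leaves little room for a reversal, so this count is no support. With single libraries left out 15 to 40 lost their call, and 100 without the 3 libraries of higher roX1. Same-numbered young and old libraries had correlations of their deviations of 0.12, -0.112 and 0.000507, and not every library correlated best with its own number, so the numbers do not pair them. The replicate block gave 4072 genes called, 1076 over 2-fold, 0 in the difference between sexes and 148 in that from H3.3BK36R. Upper-quartile scaling moved the median of all genes by 0.02. Depth limits genes under about 10 normalized counts.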

Other observations

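Detoxification genes as lists had shares of calls near those over all genes, 15.4% higher and 14.8% lower. Of 82 cytochrome P450 genes 10 (12.2%) were higher and 17 (20.7%) lower in old H3.3Adelta females, and of 34 glutathione transferases 6 (17.6%) were higher and 6 lower. The 17 were 11 without young replicate 3 or old replicate 3. The higher transferases were 1 without young replicate 1 and 2 without old replicate 1 or old replicate 2, and the lower ones 3 without old replicate 2, young replicate 3 or old replicate 3. The P450 counts were 1 and 7 without the 3 libraries of higher roX1, and those of the transferases 0 and 3. Cyp6a2, which oxidises insecticides, had 5195, 8053 and 8228 normalized counts in young and 2253, 2489 and 1725 in old libraries (log2 change -1.72), and Cyp6d2 had 44.7, 58.4 and 38.4 in young and 186, 179 and 110 in old libraries (1.71). The antioxidant list had 6 higher (25.0%) and 3 lower (12.5%) of 24. It had 3 and 3 without old replicate 1, 5 and 1 without old replicate 2, 3 and 0 without young replicate 3, and 2 and 0 without the 3 libraries of higher roX1. Gclm, a subunit of the enzyme that makes glutathione, had 972, 865 and 820 in young and 2572, 1996 and 1719 in old libraries (log2 change 1.23), cnc, the fly Nrf2, had 0.39, and mitochondrial Sod2 was lower by -0.59. The autophagy receptor ref(2)P had 5060, 5309 and 4909 in young and 7997, 11724 and 9689 in old libraries (log2 change 0.93), while Atg8a was lower by -0.58.

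Of 33 neuropeptide genes 8 (24.2%) were higher and 6 (18.2%) lower, against 15.4% and 14.8% over all genes, and 3 and 3 without the 3 libraries of higher roX1. Of 29 odorant-binding proteins 6 (20.7%) were higher and 3 (10.3%) lower, the higher ones being 3 without young replicate 1, young replicate 3 or old replicate 3. Of 71 chemoreceptors 4 were higher and 1 lower, or 2 and 2 without old replicate 2. Nplp3 had 62712, 40662 and 82804 normalized counts in young and 11433, 3737 and 9116 in old libraries (log2 change -3.03), and Mip had 434, 495 and 417 in young and 812, 896 and 818 in old libraries (0.91). Hr38, a nuclear receptor of the ecdysone list that is also induced by neuronal activity, had 24006, 10620 and 5935 in young and 2418, 2450 and 3012 in old libraries (-2.13), the young libraries spanning more than the old ones. Jhe, which degrades juvenile hormone, was higher by 1.70 and the epoxide hydrolases Jheh1 and Jheh2 were lower by -0.86 and -0.74. Obp44a, an odorant-binding protein, had 8646, 8506 and 9282 in young and 3215, 1929 and 1932 in old libraries (-1.94), and Obp83ef was higher by 1.97.

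The genes tested were split by mean normalized count into 5 groups of equal size. Genes of the lowest group had a median log2 change of 0.84, with 230 of 2499 higher and 27 lower, against a median of 0.08 over all genes. Without old replicate 2, the library with reads on 16374 genes, the median was 0.37 with 109 higher and 42 lower of 2212.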
